A study of Homo sapiens with 8 samples.

Results

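The 10 genes described here make or remove the ISG15 modification or belong to the interferon-responsive branch of ADP-ribosylation: ISG15, UBA7, UBE2L6, HERC5, HERC6, USP18, PARP9, DTX3L, PARP12 and PARP14. They were chosen by name, and all 10 were found among 60649 gene identifiers, of which 19960 were protein-coding. Poly(A) RNA was sequenced from HCT116, a human colon carcinoma line, and from UF1hypo, a UHRF1 hypomorph made from it. Each line carried shScr, a control hairpin, or shUHRF1, a hairpin against UHRF1, which gave 4 groups of 2 libraries (8 in all). UF1hypo is a single HCT116 clone in which exon 4 of 1 UHRF1 allele was excised, so the effect of the lost allele and that of the clone cannot be told apart. Hairpins were delivered by lentivirus with drug selection, in the controls too. Nothing in the labels says that replicates came from separate cultures, so p-values measure only the spread between libraries, which may be technical.

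ISG15 is a ubiquitin-like protein induced by type I interferon. It is joined to target proteins by a cascade that parallels ubiquitination: UBA7 is its activating enzyme (E1), UBE2L6 its conjugating enzyme (E2), and HERC5 the main human ligase (E3), while HERC6 is a related ligase that carries this role in mice. USP18 removes ISG15 from its targets and also dampens signalling at the type I interferon receptor. PARP9 and the ubiquitin ligase DTX3L form a heterodimer, and PARP12 and PARP14 are ADP-ribosyltransferases of the same antiviral programme. Many of these genes are driven by ISGF3, a complex that holds STAT2 and IRF9 and binds the interferon-stimulated response element (ISRE). UHRF1 reads hemimethylated DNA and recruits DNMT1 to maintain CpG methylation.

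The promoter sequences are shown because several members carry the ISRE core next to their start site. RefSeq windows (GRCh38.p14, from 250 bases before to 50 after a start) were given for 8 of the 10 genes, in 10 windows, and not for UBA7 and USP18. The core (GAAA, any 2 bases, then GAAA) was searched on both strands, overlapping matches included. It was found in windows of 6 genes (ISG15, HERC5, PARP9, DTX3L, PARP12 and PARP14), and 3.57% of all 35116 RefSeq windows held it. HERC6 and UBE2L6 had no match in their windows, which says only that these letters are not there. The GAS pattern TTCNNNGAA was found in PARP14 alone and in 7.66% of all windows. In the stretches printed here, which run 5′ to 3′ on the strand of the gene, capitals mark the ISRE core, written as its reverse complement where it lies on the other strand (TTTC, any 2 bases, then TTTC).
ISG15 (chr1:1013290-1013419, plus strand): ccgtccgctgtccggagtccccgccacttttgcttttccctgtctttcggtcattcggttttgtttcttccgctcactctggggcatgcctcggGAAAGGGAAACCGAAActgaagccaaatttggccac
HERC5 (chr4:88456945-88457074, plus strand): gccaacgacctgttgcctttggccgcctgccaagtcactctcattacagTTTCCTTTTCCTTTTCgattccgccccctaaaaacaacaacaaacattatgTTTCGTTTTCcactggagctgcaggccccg
PARP9 (chr3:122564322-122564351, minus strand): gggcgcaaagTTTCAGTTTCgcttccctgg
PARP12 (chr7:140062952-140063061, minus strand): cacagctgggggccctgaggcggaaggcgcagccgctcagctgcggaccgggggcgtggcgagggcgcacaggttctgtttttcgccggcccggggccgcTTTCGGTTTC
PARP14 (chr3:122680710-122680838, plus strand): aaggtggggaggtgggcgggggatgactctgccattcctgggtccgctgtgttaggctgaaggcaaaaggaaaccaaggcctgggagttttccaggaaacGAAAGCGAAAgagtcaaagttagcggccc

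ISG15 carried 2 overlapping matches, HERC5 carried 3 (2 of them overlapping), and PARP9, DTX3L, PARP12 and PARP14 carried 1 each. The PARP9 and DTX3L matches are the same bases read from opposite strands, since the pair is transcribed divergently from neighbouring start sites. That shared core lies 41 to 32 bases before the PARP9 start used in RefSeq and spans the DTX3L start, from base -6 to base 4. The PARP12 core ends at the base before its start, and the PARP14 core lies 29 to 20 bases before its start. CpG content ran from 6 dinucleotides per window in the second PARP9 window to 41 in a UBE2L6 window, against a median of 14 over all windows. DNA methylation of these windows was not analysed here.

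Depth, read back from the ratio of coverage to FPKM, lay between 5.42 and 7.84 gigabases of aligned sequence per library. UHRF1, the targeted gene, stood at 87.5 and 98.4 TPM with shScr and 31.7 and 32.7 TPM with shUHRF1 in HCT116, against 47.3 and 50.6 with shScr and 34.1 and 21.1 with shUHRF1 in UF1hypo. TPM is a level scaled for transcript length and for the total of the library. Its log2 fold change after knockdown was -1.50 ± 0.22 (SE) in HCT116 and -0.84 ± 0.22 in UF1hypo (limma adjusted p = 0.0564 and 0.0406), so neither met the call used here, an adjusted p under 0.05 with an absolute log2 fold change over 1. With shUHRF1 the UHRF1 levels of both lines overlapped. The 5 epithelial markers were present in all groups. They summed to 4341 to 4396 TPM with shScr and 5471 to 5590 TPM with shUHRF1 in HCT116, against 8799 to 9072 and 9840 to 12687 TPM in UF1hypo. Between the lines 3 of the 5 were called higher with shScr and 3 with shUHRF1, against 2.59% and 12.2% of all genes. With shScr these were KRT8 (1.16), KRT18 (1.14) and KRT19 (1.02), and CDH1 and EPCAM were not called. The 15 leukocyte markers summed to 15.4 to 16.9 TPM with shScr and 10.1 to 11.3 TPM with shUHRF1 in HCT116, against 46.4 to 49.0 and 103 to 146 TPM in UF1hypo. CD68 and CD74 made up most of that sum, the pan-leukocyte PTPRC was listed at 0 in the first 3 groups, and CD2 was listed at 0 in all 4. CD3D, a part of the T cell receptor complex, was listed at 0 with shScr and averaged 0.175 TPM with shUHRF1 in HCT116, against 0.143 and 4.02 TPM in UF1hypo. CD3D was called for knockdown in UF1hypo (2.12 ± 0.27, limma adjusted p = 0.00166), between the lines with shUHRF1 (2.08) and for the difference of the knockdown effects (1.90). It passed the filter on low values only through UF1hypo shUHRF1. For knockdown in UF1hypo 3 of 6 leukocyte markers tested were called, all higher, against 7.39% of all genes. Beside CD3D these were CD74 (2.81 ± 0.25) and CD68 (1.11 ± 0.20), while CD79A was lower without a call (-0.85 ± 0.31). CD74 and CD68 were also called between the lines with either hairpin and for the difference. In those comparisons CD74 passed the filter only through UF1hypo. The 6 fibroblast markers summed to between 21.2 and 66.2 TPM, nearly all of it COL1A1, and COL1A2 and LUM were listed at 0 in UF1hypo shUHRF1. The part of these shifts in the results was not tested.

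Libraries of UF1hypo shUHRF1 stood apart from the others. Their difference on the log2(TPM + 1) scale followed the GC content of the transcript, with Spearman's rho at 0.865 (11500 genes, which do not count as replicates). For UF1hypo shScr rho was -0.585, and in the HCT116 groups it was -0.035 and -0.061. The members span 42.7% GC (PARP9) to 64.2% (ISG15), and the order of replicates within UF1hypo shUHRF1 differed between members, as described with each gene. Its cause was not tested. Members, list genes and neighbours are therefore described also without each of these libraries, and levels and ratios are given with both.

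ISG15 RNA was the most abundant of the 10 in all groups. Its level was 222 and 189 TPM with shScr and 282 and 256 TPM with shUHRF1 in HCT116, against 2054 and 2379 with shScr and 10510 and 6330 with shUHRF1 in UF1hypo. The UF1hypo libraries lay above all HCT116 libraries, and those with shUHRF1 lay above those with shScr. In means this was 10.8 times the HCT116 level in UF1hypo shScr and 41.0 times in UF1hypo shUHRF1. Among protein-coding genes ISG15 ranked 652 and 796 in HCT116 shScr, and in UF1hypo 46 and 40 with shScr and 2 and 9 with shUHRF1, where it took 1.05% and 0.633% of all TPM.

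**Figure D1:**
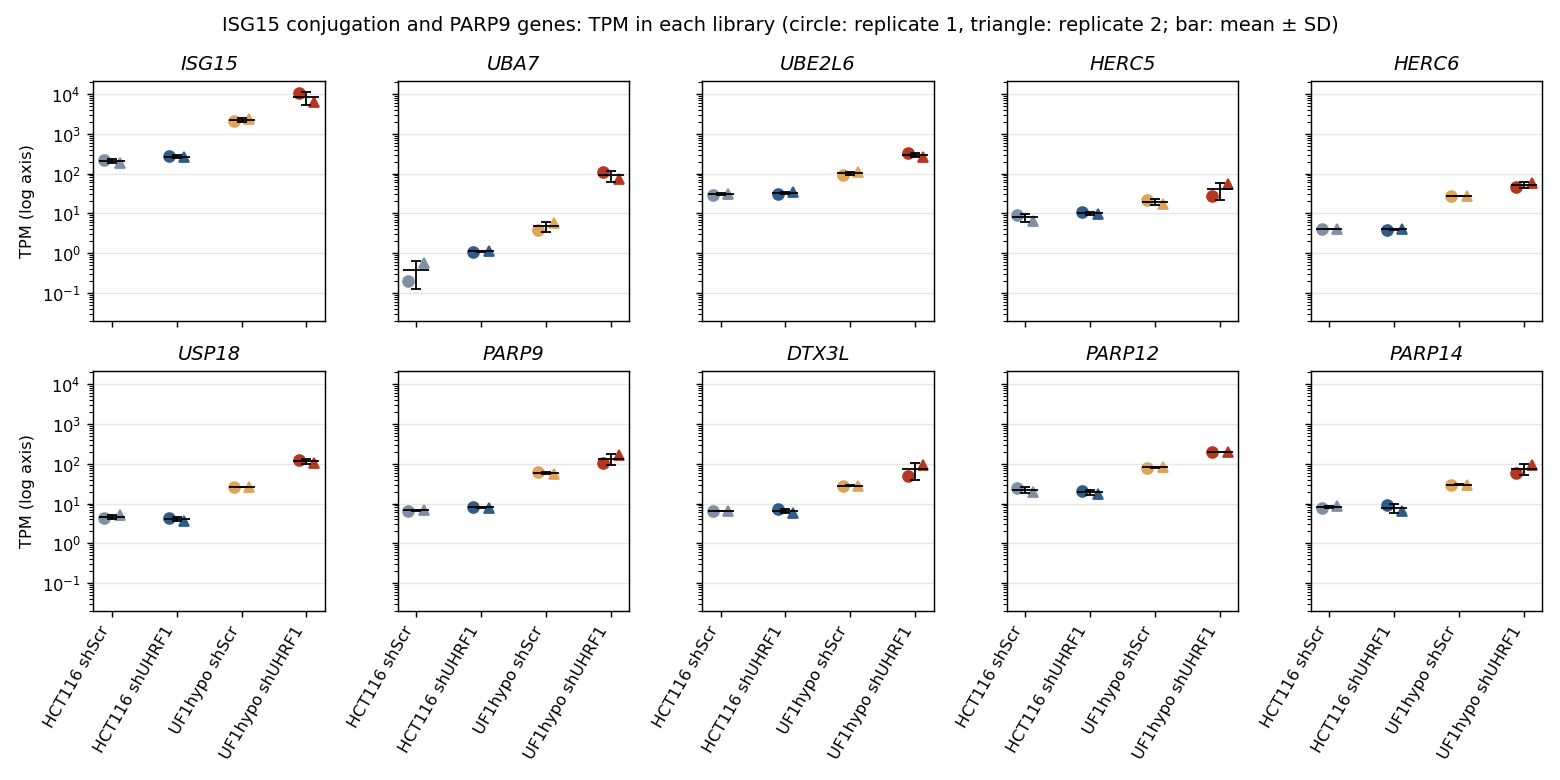
TPM of the 10 genes in each library, on a log axis shared by all panels, with circles for replicate 1, triangles for replicate 2 and black bars for the mean ± SD (n = 2). The UF1hypo libraries lie above the HCT116 libraries for every gene shown, as they do for 15.1% of 13781 protein-coding genes. The HCT116 groups with shScr and shUHRF1 overlap for 5 of the 10 genes and lie furthest apart, on this axis, for UBA7 (0.198 and 0.561 against 1.09 and 1.11 TPM).

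Set beside ubiquitin itself, ISG15 changed places with UBB, a polyubiquitin gene. The TPM ratio of ISG15 to UBB was 0.123 to 0.141 with shScr and 0.118 to 0.175 with shUHRF1 in HCT116, against 1.32 to 1.54 and 4.44 to 6.34 in UF1hypo. UBB itself lay between 1426 and 2181 TPM in the 8 libraries. TPM values compare RNA per transcript length and say nothing of protein.

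**Figure D2:**
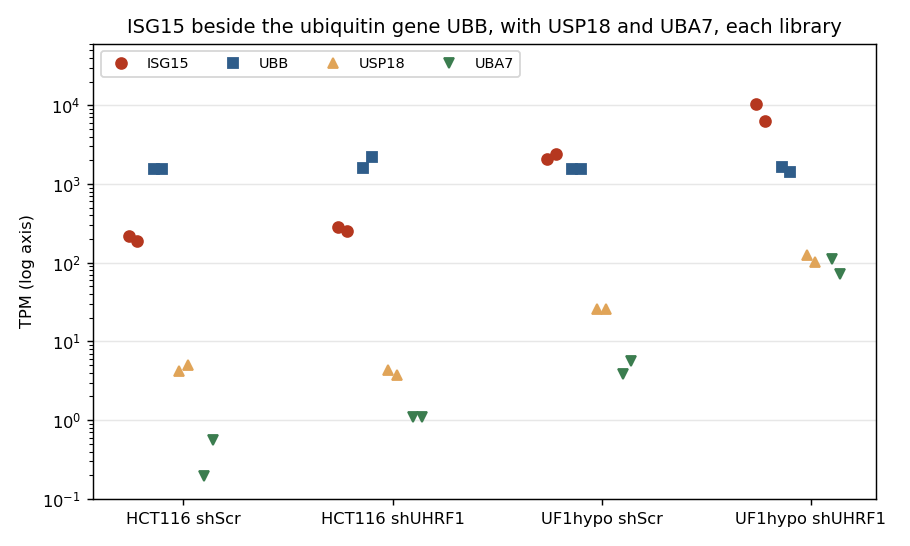
TPM of ISG15, the ubiquitin gene UBB, the deconjugase USP18 and the E1 UBA7 in each of the 8 libraries, on a log axis, with 1 point per library. ISG15 lies below UBB in HCT116 and above it in UF1hypo, while UBA7 goes from under 1 TPM in HCT116 shScr to 71.3 and 111 TPM in UF1hypo shUHRF1.

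UBA7, the E1, was the least abundant member in 3 of the groups and had the largest knockdown change of the 10 in UF1hypo. It measured 0.198 and 0.561 TPM with shScr and 1.09 and 1.11 TPM with shUHRF1 in HCT116, against 3.81 and 5.61 with shScr and 111 and 71.3 with shUHRF1 in UF1hypo. No 2 groups overlapped. Mean read coverage over the gene was 0.336 in its lowest library, so the HCT116 shScr level rests on few reads. In the clone the knockdown multiplied the mean TPM by 19.4, and UBA7 moved from the tenth place among the members to the sixth, where its range overlapped those of USP18 and PARP14. The TPM ratio of ISG15 to UBA7 was 424 to 539 in UF1hypo shScr and 88.7 to 94.6 in UF1hypo shUHRF1.

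UBE2L6, the E2, was second to ISG15 in each group. Its level was 28.8 and 31.2 TPM with shScr and 31.1 and 34.5 TPM with shUHRF1 in HCT116, against 95.1 and 107 with shScr and 325 and 270 with shUHRF1 in UF1hypo. The HCT116 groups overlapped and the UF1hypo groups did not. UBE2L3, its closest relative and an E2 for ubiquitin, was measured between 44.1 and 84.9 TPM in the 8 libraries. The TPM ratio of UBE2L6 to UBE2L3 was 0.371 to 0.382 in HCT116 shScr, 1.27 to 1.62 in UF1hypo shScr and 3.49 to 7.37 in UF1hypo shUHRF1.

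HERC5 and HERC6, the ligases, lie in tandem on chromosome 4, with HERC6 ending 14022 bases before HERC5 begins. HERC5 measured 9.31 and 6.58 TPM with shScr and 10.9 and 9.54 TPM with shUHRF1 in HCT116, against 21.6 and 17.6 with shScr and 27.6 and 53.4 with shUHRF1 in UF1hypo. The last pair differed from each other by more than the UF1hypo group means did (19.6 and 40.5 TPM). HERC6 measured 4.11 and 4.10 TPM with shScr and 3.90 and 4.04 TPM with shUHRF1 in HCT116, against 27.6 and 26.8 with shScr and 45.8 and 58.9 with shUHRF1 in UF1hypo. HERC5 was above HERC6 in all 4 HCT116 libraries (TPM ratio 1.61 to 2.79) and below it in all 4 UF1hypo libraries (0.602 to 0.906).

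USP18, which removes ISG15, was measured at 4.23 and 5.08 TPM with shScr and 4.36 and 3.70 TPM with shUHRF1 in HCT116, against 25.7 and 25.8 with shScr and 127 and 104 with shUHRF1 in UF1hypo. The HCT116 groups overlapped, and each UF1hypo group lay apart from all others. USP41, a near copy annotated as a pseudogene, was at most 0.26 TPM in any library. How reads shared by the copies were assigned is not given in the sources used here, so the USP18 level carries that uncertainty. The TPM ratio of ISG15 to USP18 was 37.2 to 52.4 in HCT116 shScr, 79.9 to 92.2 in UF1hypo shScr and 61.1 to 82.8 in UF1hypo shUHRF1.

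PARP9 and its partner DTX3L are neighbours on chromosome 3 whose annotated bodies overlap head to head. PARP9 measured 6.61 and 6.98 TPM with shScr and 8.17 and 7.85 TPM with shUHRF1 in HCT116, against 62.6 and 55.7 with shScr and 104 and 167 with shUHRF1 in UF1hypo. DTX3L measured 6.36 and 6.56 TPM with shScr and 7.22 and 5.90 TPM with shUHRF1 in HCT116, against 28.1 and 28.4 with shScr and 49.0 and 95.1 with shUHRF1 in UF1hypo. Both were about level in HCT116, whereas PARP9 was above DTX3L in UF1hypo: the TPM ratio of PARP9 to DTX3L was 1.04 to 1.06 with shScr and 1.13 to 1.33 with shUHRF1 in HCT116, against 1.96 to 2.22 and 1.76 to 2.13 in UF1hypo. Whether reads in the overlap were assigned by strand is not given in the sources used here.

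PARP12, an ADP-ribosyltransferase with RNA-binding zinc fingers, was measured at 24.7 and 19.6 TPM with shScr and 21.2 and 17.5 TPM with shUHRF1 in HCT116, against 79.9 and 83.9 with shScr and 198 and 199 with shUHRF1 in UF1hypo. It was the member whose UF1hypo shUHRF1 replicates lay closest together. PARP14, a large macrodomain-containing transferase, was measured at 7.78 and 8.61 TPM with shScr and 9.30 and 6.43 TPM with shUHRF1 in HCT116, against 30.004 and 28.909 with shScr and 59.1 and 91.6 with shUHRF1 in UF1hypo. For both genes the HCT116 groups overlapped and the UF1hypo groups stood apart. PARP14 was above PARP9 in HCT116 shScr (TPM ratio 1.18 to 1.23) and below it in both UF1hypo groups (0.480 to 0.568).

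The order of the members by mean TPM was the same at the top in all groups, with ISG15, then UBE2L6, then PARP12, and none of these overlapped the next gene in its group. Below them in HCT116 shScr, HERC5 overlapped both PARP14 and PARP9 and could not be placed, while PARP14 lay above PARP9. In UF1hypo shUHRF1 each neighbouring pair from PARP9 in the fourth place down to HERC5 in the last overlapped. Together the 10 genes took 0.0278% to 0.0379% of all TPM in the HCT116 libraries, against 0.243% and 0.276% with shScr and 1.16% and 0.744% with shUHRF1 in UF1hypo. All UF1hypo libraries lay above all HCT116 libraries for each of the 10 genes, as they did for 15.1% of 13781 protein-coding genes. In bulk RNA, more cells expressing a gene and more RNA per cell cannot be told apart.

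The first comparison asked what UHRF1 knockdown did in the parental line. None of the 10 genes was called, while 0.0708% of 12704 protein-coding genes were called in either direction by limma, and none had an unadjusted p under 0.05, against 6.38% of all genes. The log2 fold changes ran from -0.18 (PARP12) to 0.62 (UBA7), with a median of 0.07, and the median over all genes was -0.03. UBA7 passed the filter on low values only through the shUHRF1 libraries, since both shScr libraries were under 1 TPM, and it was not tested where the filter was on the mean. Its estimate was 0.62 ± 0.28 (SE), with an unadjusted p of 0.0572 from limma, and its 95% interval ran from -0.02 to 1.26. HERC5 had an interval from -0.36 to 1.04, and the intervals of the other 8 lay between -0.64 and 0.90, so changes larger than 2-fold lie outside all intervals except those of UBA7 and HERC5. Both shUHRF1 libraries lay above both controls for 4 genes (ISG15, UBA7, HERC5 and PARP9; 20.1% of all genes did) and below them for HERC6 (29.3% of all genes). With a pseudocount of 0.1 in place of 1 the UBA7 estimate was 1.43, with an adjusted p of 0.438. The ISG15 estimate was 0.39 ± 0.22 in the shared fit (limma adjusted p = 0.912). With the HCT116 libraries alone its SE was 0.098 and its limma adjusted p 0.0511, so it was close to the threshold for p there. In that fit 0.701% of all genes were called.

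The second comparison asked the same in UF1hypo. The knockdown was accompanied by higher RNA for 8 of the 10 genes, and 7.39% of 13620 protein-coding genes were called higher. UBA7 rose most, by 3.997 ± 0.281 (log2, SE), followed by USP18 (2.11 ± 0.19), ISG15 (1.88 ± 0.23) and UBE2L6 (1.54 ± 0.16). The E1, the E2, the modifier ISG15 and the deconjugase were thus all called (limma adjusted p between 7.0e-05 and 0.00127). PARP14 (1.29 ± 0.25), PARP12 (1.27 ± 0.17), DTX3L (1.24 ± 0.29) and PARP9 (1.15 ± 0.23) were called with smaller changes (limma adjusted p between 0.00241 and 0.0260). The ligases were not called: HERC6 had a limma adjusted p of 0.0172 but a change of 0.91 ± 0.19, under the fold threshold, and HERC5 had 0.95 ± 0.31 with an adjusted p of 0.0853. Both libraries lay above both controls for all 10 genes, as for 30.6% of all genes, and the members' median of 1.28 stood beside 0.04 over all genes.

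The calls of ISG15, UBA7, UBE2L6, USP18 and PARP12 held in all 21 alternatives tried. PARP9, DTX3L and PARP14 were lost, leaving 5 members called, when the fit used the 4 UF1hypo libraries alone, when libraries were weighted by their spread, and when either UF1hypo shScr library or UF1hypo shUHRF1 replicate 2 was left out. Beside 8.53% of all genes called in either direction in the fit as reported, the share was 4.13% with those libraries alone, 3.96% with weights, and 4.83% and 5.71% without UF1hypo shScr replicate 1 and replicate 2, but 16.8% (2255 genes) without UF1hypo shUHRF1 replicate 2. Without UF1hypo shUHRF1 replicate 1 all 10 were called, HERC5 at 1.41 and HERC6 at 1.09. Leaving out any HCT116 library, which enters only through the shared spread, gave 7, with DTX3L at an adjusted p of 0.0518 to 0.0588. After correction for GC content and transcript length 9 were called, HERC5 at 1.03 included. Quantile normalization kept the count at 8 and split the calls over all genes into 681 higher and 289 lower, in place of 1007 and 155.

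**Figure D3:**
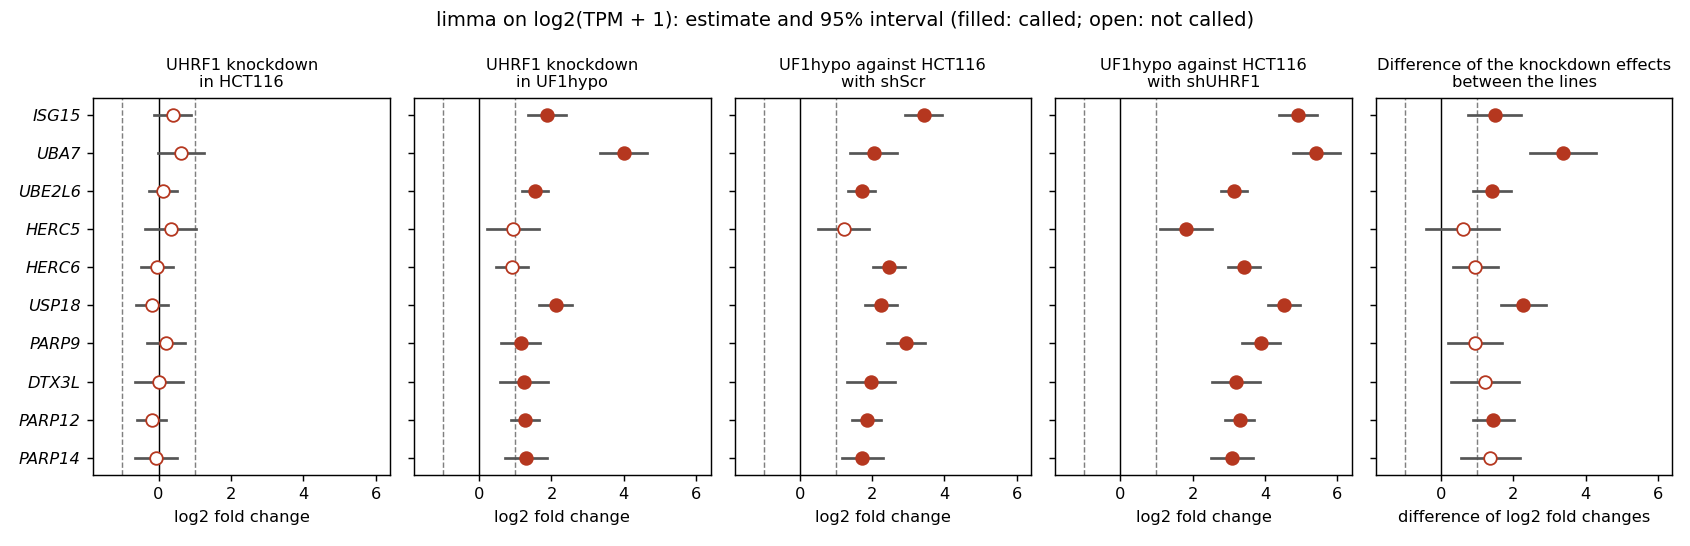
log2 fold changes of the 10 genes on the log2(TPM + 1) scale in 4 comparisons, and the difference of the knockdown effects in the last panel, with points for the limma estimate and lines for its 95% interval. Filled points met the call (adjusted p under 0.05 and absolute log2 fold change over 1), and dashed lines mark a log2 fold change of 1. No point is filled for knockdown in HCT116, 8 are for knockdown in UF1hypo, 9 and 10 for the comparisons of the lines, and 5 for the difference.

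**Figure D4:**
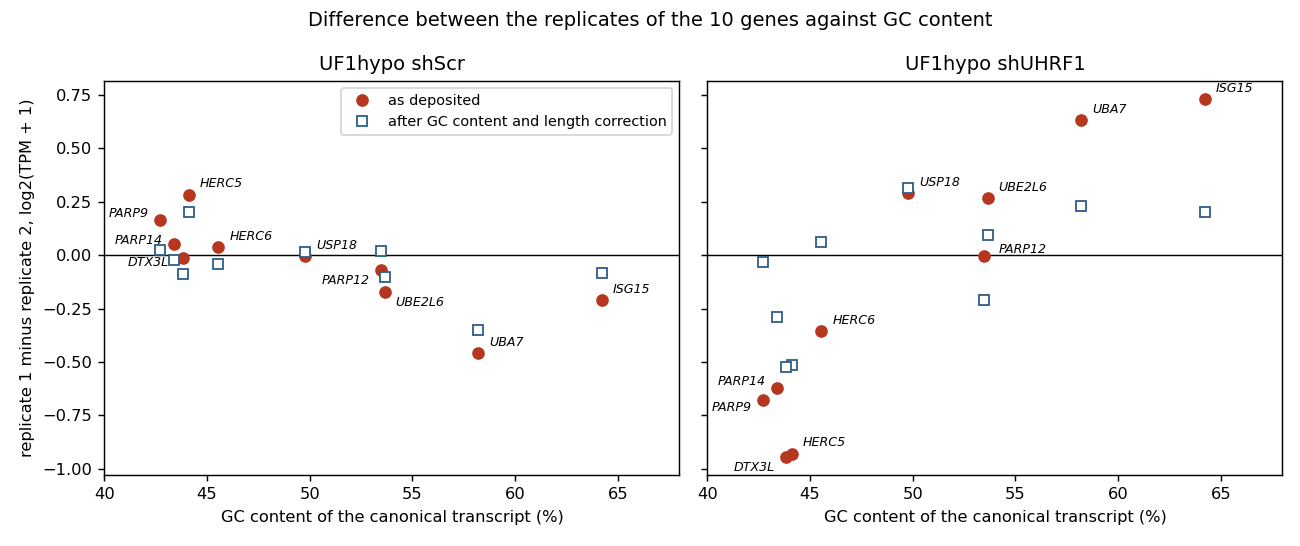
Difference between replicate 1 and replicate 2 of UF1hypo shScr (left) and UF1hypo shUHRF1 (right) on the log2(TPM + 1) scale, for each of the 10 genes, against the GC content of its canonical transcript, as deposited (filled) and after correction for GC content and length (open). In UF1hypo shUHRF1 the GC-rich ISG15 and UBA7 lie above 0 and the AT-rich PARP9, PARP14, DTX3L and HERC5 lie below it, and the open points lie closer to 0 for 8 of the 10 genes.

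The same split by GC content is visible within the members. In UF1hypo shUHRF1, ISG15, UBA7, UBE2L6 and USP18 were higher in replicate 1, PARP12 was about equal, and HERC5, HERC6, PARP9, DTX3L and PARP14 were lower in it. Over the 10 genes Spearman's rho between that difference and GC content was 0.867, given as a description since the points share their libraries. In UF1hypo shScr the relation had the opposite sign, at -0.855. The median absolute difference between the UF1hypo shUHRF1 replicates was 0.627 over the 10 genes, 0.461 over all genes, and 0.221 over the 10 after the correction. The gap to UF1hypo shScr was therefore wider in replicate 1 for ISG15, UBA7, UBE2L6 and USP18, and wider in replicate 2 for HERC5, HERC6, PARP9, DTX3L and PARP14.

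The comparison of the lines with the control hairpin asked what the clone differed in before knockdown. Of the 10 genes 9 were called higher in UF1hypo, against 2.59% of 12856 protein-coding genes. ISG15 differed most, by 3.43 ± 0.22 (log2, SE), then PARP9 by 2.95 ± 0.23, HERC6 by 2.46 ± 0.19, USP18 by 2.25 ± 0.19 and UBA7 by 2.04 ± 0.28. DTX3L (1.97 ± 0.29), PARP12 (1.85 ± 0.18), PARP14 (1.73 ± 0.25) and UBE2L6 (1.72 ± 0.16) followed, and the limma adjusted p of all 9 lay between 8.8e-05 and 0.00562. HERC5, at 1.21 ± 0.31, had an adjusted p of 0.0634. UBA7 was under 1 TPM in both HCT116 shScr libraries, so it was tested here only because it was higher in UF1hypo. Its fold on this scale is damped: the ratio of mean TPM was 12.4 and the estimate with a pseudocount of 0.1 was 3.41.

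Leaving out any 1 of the 4 shScr libraries took DTX3L and PARP14 over the threshold, to limma adjusted p-values between 0.0507 and 0.0732. UBA7 was lost without HCT116 shScr replicate 1 and without UF1hypo shScr replicate 2 (0.0640 and 0.0599), so that 6 members remained called there. HERC5 was called in 8 of 20 alternatives. The other 6 members were called in all 20.

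With shUHRF1 in both lines, all 10 genes were called higher in UF1hypo, as were 12.2% of 13650 protein-coding genes. The log2 differences ran from 1.82 ± 0.31 (HERC5) to 5.42 ± 0.28 (UBA7), with ISG15 at 4.92 ± 0.23 and USP18 at 4.53 ± 0.19, and all 10 calls held in the 20 alternatives. Quantile normalization split the calls over all genes into 1224 higher and 932 lower, in place of 1670 and 535. UHRF1 itself differed between these groups by -0.25 ± 0.22, with a 95% interval from -0.76 to 0.25. HCT116 shUHRF1 held less UHRF1 RNA than UF1hypo shScr (31.7 and 32.7 against 47.3 and 50.6 TPM). Both UF1hypo shScr libraries lay above both HCT116 shUHRF1 libraries for each of the 10 genes, as they did for 30.8% of 12869 protein-coding genes. These are RNA levels, UHRF1 protein was not analysed here, and the relation of the members to the amount of UHRF1 was not tested. The 4 comparisons share libraries pairwise and are not independent of each other.

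The difference of the knockdown effects between the lines was tested directly. It was called for 5 of the 10 genes, all larger in UF1hypo, against 4.54% of 13781 protein-coding genes: UBA7 (3.38 ± 0.40, log2), USP18 (2.28 ± 0.27), ISG15 (1.49 ± 0.32), PARP12 (1.45 ± 0.25) and UBE2L6 (1.42 ± 0.23), with limma adjusted p between 0.00282 and 0.0363. Of the other 5, PARP14 (1.36 ± 0.36) and DTX3L (1.23 ± 0.41) passed 1 in size but not the adjusted p (0.0716 and 0.146), and HERC6 (0.95 ± 0.27), PARP9 (0.94 ± 0.33) and HERC5 (0.61 ± 0.44) did neither. The interval of HERC5 ran from -0.40 to 1.61, so its knockdown effects were not shown to differ and not shown to be alike. UBA7 and USP18 were called in all 19 alternatives, PARP12 and UBE2L6 in 14, and ISG15 in 9. The count was 8 after the GC and length correction, where 7.80% of all genes were called in either direction, in place of 5.09%. Over the alternatives, those with a library left out included, the estimates ran from 1.13 to 1.92 for ISG15, 1.29 to 1.61 for PARP12 and 1.27 to 1.55 for UBE2L6. Those of HERC5 ran from 0.14 to 1.07. Quantile normalization gave 4 members and 357 higher and 112 lower calls over all genes, in place of 625 and 77.

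The pathway upstream was followed through 9 interferon signalling genes. In UF1hypo the knockdown was accompanied by calls for 3 of 9, all higher, against 7.39% of all genes: IRF7 (1.84 ± 0.23), IRF9 (1.73 ± 0.18) and STAT2 (1.18 ± 0.15), with limma adjusted p between 0.000545 and 0.00148. IRF9 and STAT2 are parts of ISGF3, and IRF7 is an interferon-inducible regulator. In HCT116 none of the 9 was called or had an unadjusted p under 0.05. Between the lines with shScr 4 of 9 were called higher, among them IRF7 (3.08), IRF9 (2.78) and STAT2 (1.08), and with shUHRF1 5 of 9, against 2.59% and 12.2% of all genes. For knockdown in UF1hypo, IRF7, IRF9 and STAT2 stayed over the fold threshold without UF1hypo shUHRF1 replicate 1 and without replicate 2 (added after seeing the data). They did so too between the lines with shUHRF1. The receptor chains IFNAR1 and IFNAR2 were not called, at -0.31 ± 0.30 and -0.03 ± 0.21 for knockdown in UF1hypo.

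Among 29 relatives of ubiquitin conjugation (other E1s, E2s and HERC ligases, ubiquitin genes and ubiquitin-like modifiers), 28 were tested. None was called after knockdown in HCT116 or in UF1hypo, or between the lines with shScr. In these comparisons 0.0708%, 8.53% and 3.54% of all genes were called in either direction. The list medians were -0.03, -0.12 and -0.18, and 1, 5 and 5 of the 28 had an unadjusted p under 0.05 in limma. With shUHRF1 in both lines 1 was higher, TRIM25 (1.06 ± 0.15), an interferon-responsive ligase, against 12.2% of all genes. In that comparison 1 was lower, UBA2 (-1.30 ± 0.21), a subunit of the SUMO E1, against 3.92% of all genes. The list median was -0.32, beside 0.05 over all genes, with 11 of 28 at an unadjusted p under 0.05 in limma. UBA2 stayed lower by more than 1 there without UF1hypo shUHRF1 replicate 1 and without replicate 2 (added after seeing the data). TRIM25 kept its call without replicate 2 but not without replicate 1, and other relatives were lower by more than 1 without replicate 2. After knockdown in UF1hypo HERC4 rose by more than 1 without replicate 1. Without replicate 2 some relatives, UBA2 among them, fell by more than 1. UBD, which encodes the ubiquitin-like modifier FAT10, was listed at 0 in all 8 libraries.

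Among 24 relatives of ADP-ribosylation (other PARPs, hydrolases and Deltex ligases), none of 20 tested was called in HCT116 and 3 of 23 were called higher after knockdown in UF1hypo, against 7.39% of all genes. DTX3, a Deltex ligase, was listed at 0 in both shScr groups and measured 2.73 and 5.72 TPM in UF1hypo shUHRF1, and it was tested only because it was high there. The others were PARP10 (1.96 ± 0.37), a mono-ADP-ribosyltransferase, and PARP3 (1.40 ± 0.25), a DNA-damage-responsive one. PARP10 was also called between the lines with shScr, the 1 call of 21 tested, against 2.59% of all genes (4.28 ± 0.36), with means of 3.83 TPM in HCT116 and 87.0 TPM in UF1hypo. With shUHRF1 in both lines 5 of 23 were called higher, against 12.2% of all genes, DTX3 and ZC3HAV1 (1.57 ± 0.19), the zinc finger antiviral protein, among them. Leaving out UF1hypo shUHRF1 replicate 1 or replicate 2 (added after seeing the data) left DTX3 and PARP3 over the fold threshold for knockdown in UF1hypo. PARP10 kept its call there without replicate 2 but not without replicate 1. Between the lines with shUHRF1, DTX3, PARP10, PARP3 and ZC3HAV1 stayed over the fold threshold in both cases. Some relatives fell by more than 1, without replicate 1 for the knockdown and without replicate 2 between the lines. The list medians were 0.18 for knockdown in UF1hypo, 0.07 between the lines with shScr and 0.48 with shUHRF1, beside 0.04, -0.05 and 0.05 over all genes, and 10 of 23, 8 of 21 and 12 of 23 had an unadjusted p under 0.05.

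The genes lying next to the members in the genome gave 15 non-member neighbours. After knockdown in UF1hypo 1 of 13 tested was called higher, SMTNL1 beside UBE2L6 (1.94), and between the lines with shScr 1 of 13, SERPING1 on the other side of UBE2L6 (1.84), where 7.39% and 2.59% of all genes were called higher. No HCT116 library held SMTNL1 or SERPING1 above 1 TPM, so both entered the comparisons of the lines only because they were high in UF1hypo. With shUHRF1 in both lines 3 were higher (SMTNL1, SERPING1 and PPM1K) and 2 lower (KDM7A and HSPBAP1) of 13, against 12.2% and 3.92% of all genes. Without UF1hypo shUHRF1 replicate 1 and without replicate 2, alternatives added after seeing the data, SMTNL1, SERPING1 and PPM1K stayed over the fold threshold with shUHRF1. SMTNL1 did so for knockdown in UF1hypo. KDM7A and HSPBAP1 kept their calls without replicate 2 but not without replicate 1, and without replicate 2 further neighbours passed the fold threshold in both comparisons. None of 11 tested was called in HCT116. PARP15, which lies between DTX3L and PARP14 and belongs to the same macrodomain family, averaged at most 0.064 TPM in any group and was not tested. Both genes that flank it were called after knockdown in UF1hypo.

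The genes whose profile over the 8 libraries was most like that of ISG15, by Pearson's r of log2(TPM + 1) among 13771 protein-coding genes, were IRF7 (0.999), SELENBP1, FHL1, IFITM3 and HSH2D (0.997 to 0.998). For PARP9 they included IFIT1 (0.999), IFI44 (0.998), IFIH1 and PLSCR1 (both 0.996). IFIT1 averaged 1.57, 2.88, 58.1 and 262 TPM in the order of groups used above, and IRF7 averaged 15.6, 17.5, 139 and 508 TPM. Among the members themselves r ran from 0.893 (UBA7 with HERC6) to 0.998 (PARP9 with HERC6) over 45 pairs. These are descriptions over libraries that share 4 groups, and the high values follow the step between groups.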

How the data were processed

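The authors aligned paired-end reads to GRCh38 with HISAT2 (2.0.4) and estimated gene abundance with StringTie (2.1.4). The deposited values are TPM, FPKM and mean read coverage per gene, 1 table per library. Counts were not used here, so the read depth behind a single gene is known only as coverage. Aligned bases per library were recovered from coverage over FPKM. Records of one gene identifier were summed, and identifiers were matched to GENCODE release 44 (60507 of 60649 matched). Protein-coding genes above 1 TPM in at least 1 library of a comparison were tested on log2(TPM + 1), which understates changes of low genes, with limma 3.58.1 in R 4.3.3 (empirical Bayes with trend, all 8 libraries, 4 groups, 4 residual degrees of freedom). p-values were adjusted by Benjamini-Hochberg over all genes tested, and a call required an adjusted p under 0.05 and an absolute log2 fold change over 1. With 2 against 2 libraries an exact permutation test cannot go below p = 0.33 (two-sided).

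Named genes were the members, UHRF1, USP41, neighbours that were called or shared by 2 members, the 5 genes most alike to ISG15 and to PARP9, and up to 4 called genes per related list. UBB, UBE2L3, UBD, IFNAR1, IFNAR2 and the cell type markers were named in addition, and some items the rule would name are not reported here. The members and lists were chosen with earlier results of these data known. Replicate numbers were not treated as pairs: deviations of same-numbered libraries correlated at -0.573 between the UF1hypo groups and between -0.020 and 0.049 elsewhere. The fit was tested on simulated data. Alternatives changed the pseudocount, the TPM filter, the libraries in the fit, the scaling (FPKM, median ratio, quantile), the handling of records, library weights, GC content and length (10 bins), the replicate block, and each library in turn. Plots were drawn with matplotlib 3.10.9.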

Additional observations from a re-analysis of the deposited data

Results flagged for a closer look

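For 5 genes the knockdown effect differed between the lines by a direct test of that difference with limma. The log2 difference (UF1hypo minus HCT116) was 3.38 for UBA7, 2.28 for USP18, 1.49 for ISG15, 1.45 for PARP12 and 1.42 for UBE2L6. The interferon-inducible E1, E2, modifier and deconjugase are among them. The ligases HERC5 and HERC6 are not, nor are PARP9, DTX3L and PARP14. Of 13781 protein-coding genes 4.54% were called larger in UF1hypo. The intervals of HERC5 (-0.40 to 1.61) and HERC6 (0.33 to 1.57) overlapped those of ISG15 (0.76 to 2.23), PARP12 and UBE2L6. Both ligase intervals lay below those of UBA7 (from 2.47) and USP18 (from 1.65). ISG15 was called in 9 of 19 alternatives, so its call depended on the setting. No gene group had more than 2 libraries, so no single library could be tested as standing apart from its group.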

How the results depend on the processing

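Across 20 alternatives, no member was called for knockdown in HCT116 and all 10 were called between the lines with shUHRF1. For knockdown in UF1hypo the count of members called was 5 with the libraries of the comparison alone and 5 with library weights, 8 with the replicate block, 9 with the GC and length correction, and 5 to 10 when single libraries were left out. For UF1hypo against HCT116 with shScr it was 6 to 10 when single libraries were left out. For the difference of the knockdown effects it was 8 with the GC and length correction, 8 with the replicate block and that correction together, and 2 to 9 when single libraries were left out. A lone library left in a group is then assumed to vary like the other groups. The number of all genes called went from 9 as reported to between 0 and 101 for knockdown in HCT116, from 1162 to between 539 and 2255 for knockdown in UF1hypo, from 455 to between 149 and 598 and from 2205 to between 1495 and 3859 for the lines with shScr and with shUHRF1, and from 702 to between 171 and 2142 for the difference. UBA7 in HCT116 had no value under the filter on mean TPM.

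Signs turned only for small changes in HCT116. HERC6 (-0.04 as reported) was 0.0356 with the GC and length correction, also with the replicate block added. PARP14 (-0.07) was 0.022 under both and between -0.307 and 0.164 when single libraries were left out, positive without HCT116 shUHRF1 replicate 2. DTX3L (0.01) was between -0.113 and 0.141, negative without HCT116 shScr replicate 1 (-0.005) and without HCT116 shUHRF1 replicate 1. The cause was not tested.

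Replicates share only a number, and the block changed no count of members called. Because the UF1hypo groups deviated in opposite directions, a crossed pairing was added after seeing the data, which also gave 8 members and 1207 genes in all for knockdown in UF1hypo.

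With 2 libraries per group, 1 clone and no counts, precision is limited. Changes under 2-fold were left out by the fold threshold of the call, whatever their precision. UBA7 in HCT116 rests on coverage near 1, and the GC-linked difference between the UF1hypo shUHRF1 libraries moves with the spread of the members at either end of the GC range.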
